A study of Mus musculus with 14 samples.

Results

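The report describes where the effect of a DOT1L inhibitor on gene expression differed between CD4+ T cells that expressed an interferon-gamma reporter and those that did not. The quantity is an interaction. It is the log2 fold change of SGC0946 over its inactive control compound SGC0649 in reporter-positive (YFPpos) cells minus the same fold change in reporter-negative (YFPneg) cells. It used the 11 cultured libraries of the 14 in the series and was tested in every one of 12343 genes, out of 22048 in the table, that passed a filter on low counts. A negative interaction means that the level with SGC0946, relative to SGC0649, was lower in YFPpos than in YFPneg cells.

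The mice were IFN-g-YFP reporter animals on the C57BL/6 background, and the cells came from their spleens and peripheral lymph nodes. In these mice a yellow fluorescent protein reports expression of the interferon-gamma locus. Cells enriched for CD4+ T cells, and not first sorted as naive, were held for 4 days with antibodies fixed to the plate against CD3 (anti-CD3) and CD28 (anti-CD28), each at 1 µg/ml, with the cytokines IL-2 and IL-12 (each 10 ng/ml) and with anti-IL4 (10 µg/ml), which favours the Th1 fate. SGC0946 or SGC0649 was present at 1 µM throughout, and CD4+ YFP+ or CD4+ YFP- cells were then sorted. With SGC0649 there were 2 YFPneg libraries and 3 YFPpos libraries, and with SGC0946 there were 3 of each sort. A further 3 libraries of sorted naive CD4+ cells are in no contrast. They took part in the filter on low counts, the scaling and the estimate of spread. Without them 56 genes passed in the interaction, against 142 with them. Age and sex of the mice, the share of cells that were YFP+ and a culture without compound were not analysed here. The design text speaks of biological replicates, but nothing else ties them to separate animals, so the p-values measure the spread between these samples.

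DOT1L is the methyltransferase that places methyl groups on lysine 79 of histone H3 within transcribed genes, a mark that accompanies active transcription. It works with partners of the elongation machinery, among them the YEATS-domain proteins AF9 (Mllt3) and ENL (Mllt1). Th1 cells are the helper T cells that secrete interferon-gamma under the transcription factor T-bet (Tbx21), after IL-12 signals through STAT4. Cells of the same culture that have not turned on the interferon-gamma locus can be less differentiated, or can follow another fate.

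Total counts ranged from 14.5 to 31.6 M (1 M being 1000000 counts) per cultured library. The median standard error of the interaction was 0.16 on the log2 scale, against 0.11 for the SGC0946 effect in YFPpos cells and 0.12 in YFPneg cells, so small differences between the sorts are measured less well than the effects themselves. Summed levels of 5 CD4 T cell markers were 1370 to 1780 CPM (counts per 1000000, TMM-scaled) in the cultured libraries. Unmapped reads were 3.14% to 4.62% in YFPneg libraries and 6.44% to 8.35% in YFPpos libraries, apart from YFPpos SGC0946 replicate 2 at 3.61%. This mapping difference lies between the sorts, and its part in the results was not tested. Multimapping reads, 21.5% to 25.7%, formed a category of their own outside the gene counts. Counts of genes with near-identical copies are therefore uncertain.

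The estimated SGC0946 effect had the same sign in both sorts at most genes, though most genes did not pass the test in either sort. In YFPpos cells 3424 genes passed an adjusted p of 0.05 (27.7% of those tested). Of these, 1490 were higher with SGC0946 (12.1%) and 1934 lower (15.7%). With DESeq2's size factors the balance turned, to 1702 higher and 1388 lower, and leaving out 1 library gave 1886 to 4565 genes, with 1886 without YFPpos SGC0649 replicate 3 and 2004 without YFPpos SGC0946 replicate 2. In YFPneg cells 1065 genes passed (8.63%), of which 616 were higher (4.99%) and 449 lower (3.64%), and leaving out 1 library gave 335 to 1520, the fewest without YFPneg SGC0649 replicate 2. The YFPneg comparison had 1 library fewer and the smallest totals, so a lower count does not by itself show a smaller effect. Across all tested genes 70.4% had the same sign in both sorts, and Spearman's rho of the effects was 0.54 (Pearson's r 0.50). Of the genes that passed in YFPpos cells, 91.7% of the higher and 83.9% of the lower had the same sign in YFPneg cells. Of those that passed in YFPneg cells, 94.6% of the higher and 94.9% of the lower had the same sign in YFPpos cells. Genes are not independent replicates and the groups share no libraries between the sorts.

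The effect itself differed between the sorts at 142 genes (1.15% of those tested), by edgeR's quasi-likelihood test with Benjamini-Hochberg adjustment. It was lower in YFPpos cells at 110 (0.891%) and higher at 32 (0.259%), and 1706 genes had an unadjusted p under 0.05. With DESeq2's size factors in place of TMM 119 genes passed, of which 67.2% were lower against 77.5% with TMM. The smallest absolute interaction among the called genes was 0.35 and the median 0.64. At 27 genes it was at least 1, meaning effects that differ by a factor of 2 or more, with 15 of these lower and 12 higher. The count moved between 61 and 241 when 1 library was left out. It was 61 without YFPneg SGC0649 replicate 1, 76 without its replicate 2, 241 without YFPneg SGC0946 replicate 2 and 71 without YFPpos SGC0649 replicate 2. It was 66, 86 and 78 without YFPpos SGC0946 replicates 1, 2 and 3. Every one of the 142 kept its sign in each of the 19 alternative fits that tested it, and 32 passed the threshold in all 19.

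Over both the lower and the higher genes, the median SGC0946 effect was larger in size in YFPpos than in YFPneg cells. Of the 110 lower genes, 93 passed the test of the SGC0946 effect in YFPpos cells only, 3 in YFPneg cells only, 11 in both sorts in the same direction and 3 in both in opposite directions. Of the 32 higher genes the same counts were 23, 3, 4 and 2. Over all tested genes 27.7% passed in YFPpos and 8.63% in YFPneg cells, where the comparison had 1 library fewer. A pass in 1 sort only therefore does not show that the other sort had no effect. The median effect over the lower genes was -0.60 in YFPpos cells and 0.02 in YFPneg cells. Over the higher genes it was 0.92 and 0.10. The 2 compounds did not overlap in YFPpos libraries at 107 of the 110 and 29 of the 32, against 57.2% of all tested genes. In YFPneg libraries they did not overlap at 43 and 19, against 29.8% of all tested genes. An interaction past its threshold needs a large difference between these effects, so such counts describe the called genes and are not separate evidence.

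**Figure D1:**
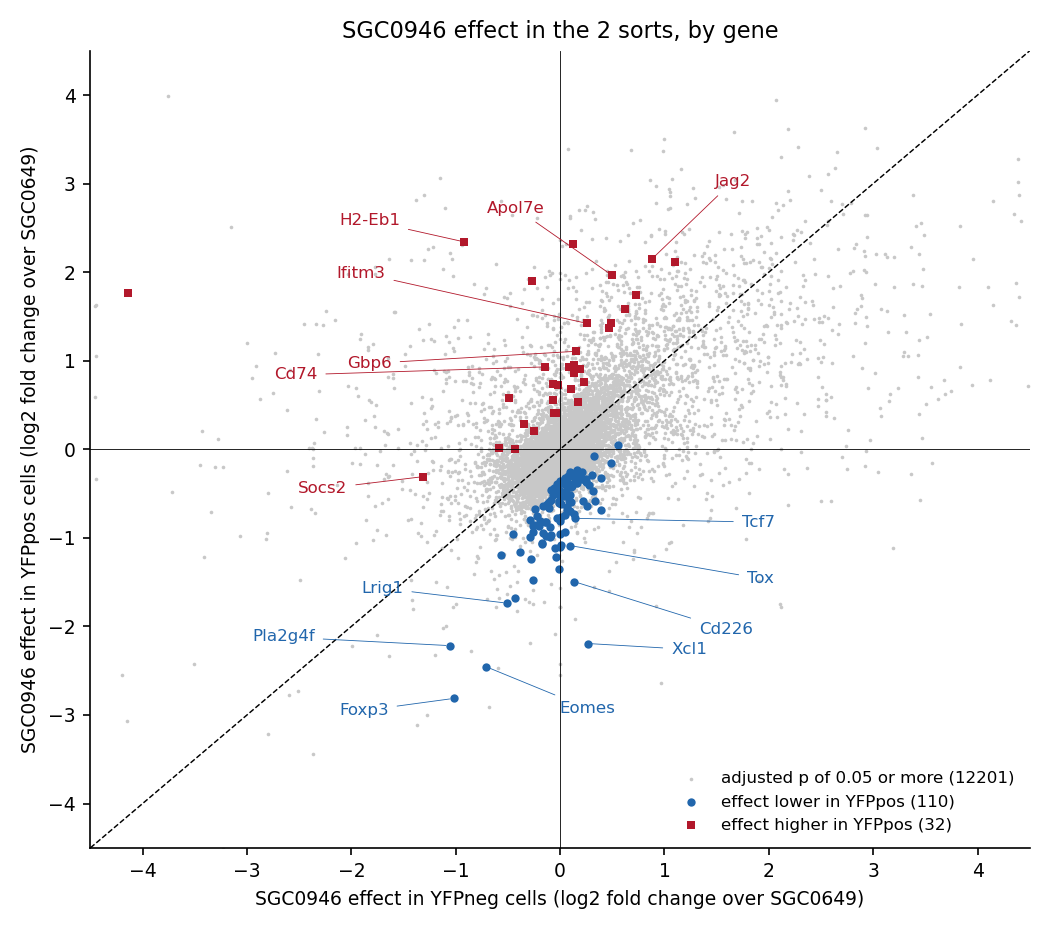
SGC0946 effect in YFPneg cells (horizontal) against that in YFPpos cells (vertical), as log2 fold changes over SGC0649, with 1 point per tested gene. Blue circles are the 110 genes with a lower and red squares the 32 with a higher effect in YFPpos cells; equal effects lie on the dashed line, and 85 genes outside the axes, none of them called, are not drawn. Most blue points sit below 0 on the vertical axis and near 0 on the horizontal one.

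The same 142 genes can be read as a change in how far the sorts lie apart. With SGC0649, 90 of the 110 lower genes were already lower in YFPpos than in YFPneg cells, and the gap was wider with SGC0946, moving in the median from -0.56 to -1.29 on the log2 scale. A further 16 went from a small gap in favour of YFPpos (median 0.17) to one in favour of YFPneg (median -0.39), and 4 kept a narrower gap in favour of YFPpos. Among the 32 higher genes the picture was mixed. A YFPneg-high gap narrowed at 13 (median -1.99 to -1.17), a YFPpos-high gap widened at 11 (median 0.33 to 0.99) and 8 changed sign (median -0.66 to 0.65). The interaction is the gap with SGC0946 minus the gap with SGC0649. A lower gene with a YFPneg-high gap under SGC0649, or a higher gene with a YFPpos-high gap, therefore must have a wider one with SGC0946. Such widening is not separate evidence. The share of all tested genes that were lower in YFPpos cells with SGC0649 is not given here. In bulk libraries of sorted cells, fewer cells of a type and less RNA per cell cannot be told apart, and the sort gate itself may hold other cells under each compound.

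**Figure D2:**
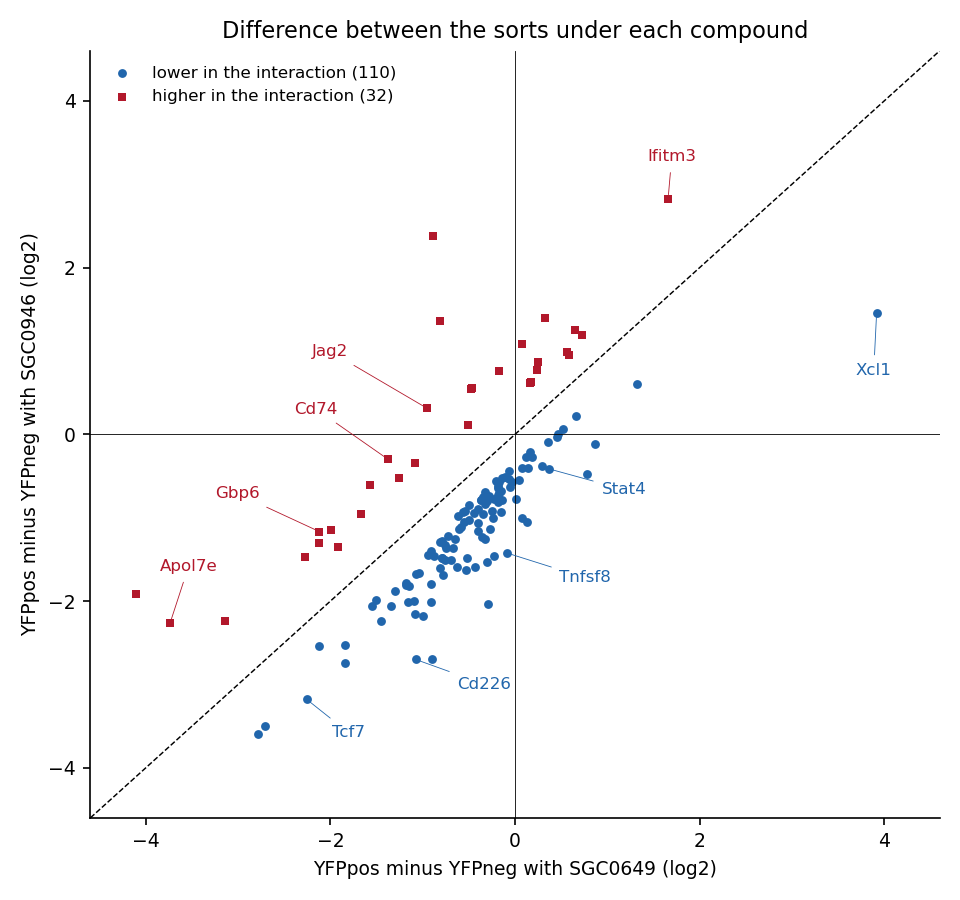
YFPpos level over YFPneg level (log2) with SGC0649 (horizontal) and with SGC0946 (vertical) for the called genes, with 1 point per gene; blue circles are lower and red squares higher in the interaction, and Rimkla lies outside the axes. Genes on the dashed line would have the same gap under both compounds. The blue points below the line at the left are the 90 genes whose YFPneg-high gap was wider with SGC0946, Tcf7 among them.

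Genes of naive and resting T cells included the smallest p-value. Of 28 tested, 5 were lower in the interaction and 1 higher, with a median of -0.10 against -0.04 for all tested genes. Over all tested genes 0.891% were lower and 0.259% higher, which is the background for this and every later list. Tcf7 (chr11:52252371-52283014, GRCm38) encodes TCF-1, a transcription factor of naive, memory and stem-like T cells. In YFPneg cells it stood at 750 and 719 CPM with SGC0649 and at 761, 756 and 914 CPM with SGC0946. In YFPpos cells it stood at 151, 158 and 151 CPM with SGC0649 and at 93.9, 88.8 and 85.8 CPM with SGC0946. All 3 YFPpos SGC0946 libraries lay below all others, while the YFPneg libraries of both compounds stayed far above both YFPpos groups. The interaction was -0.92 ± 0.10 (SE, adjusted p 0.00075), from an effect of -0.78 in YFPpos and 0.14 in YFPneg cells.

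Bach2 (chr4:32238804-32586108), a transcriptional repressor that restrains effector differentiation, followed the same pattern. Its YFPneg levels were 372 and 383 CPM with SGC0649 and 364, 350 and 418 CPM with SGC0946. Its YFPpos levels were 229, 229 and 241 CPM with SGC0649 and 137, 125 and 136 CPM with SGC0946. The compounds overlapped in YFPneg cells and were well apart in YFPpos cells, with an interaction of -0.81 ± 0.10 (SE, adjusted p 0.00082). Ccr7 (chr11:99144196-99155077) encodes the receptor that brings T cells to lymph nodes. It fell in YFPpos cells from 609, 664 and 617 CPM to 393, 353 and 425 CPM. In YFPneg cells it read 820 and 845 CPM with SGC0649 and 824, 907 and 879 CPM with SGC0946, and the interaction was -0.75 ± 0.10 (SE).

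Foxp1 (chr6:98925338-99522721), which maintains quiescence, fell in both sorts, further in YFPpos cells. Its YFPneg levels were 244 and 238 CPM with SGC0649 and 205, 209 and 189 CPM with SGC0946. Its YFPpos levels were 172, 172 and 204 CPM, then 101, 92.2 and 94.5 CPM. The effects were -0.93 in YFPpos and -0.26 in YFPneg cells, and their difference was -0.67 ± 0.10 (SE, adjusted p 0.0042). Tcf7, Bach2, Ccr7 and Foxp1 passed in all 19 alternatives. The other called members fall outside the naming rule and were named after their values were seen. Klf3, a repressor of the Kruppel-like family, had an interaction of -0.68 and passed in 15 of the 19. S1pr1, the receptor by which T cells leave lymphoid tissue, went the other way at 0.82 and passed in 17. S1pr1 read 38.1 to 57.9 CPM in YFPpos SGC0649 libraries and 85.5 to 98.6 CPM in YFPpos SGC0946 libraries, against 208 to 240 CPM in YFPneg cells under either compound. The members without a call included Lef1, a partner of TCF-1, at -0.23 (adjusted p 0.27).

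**Figure D3:**
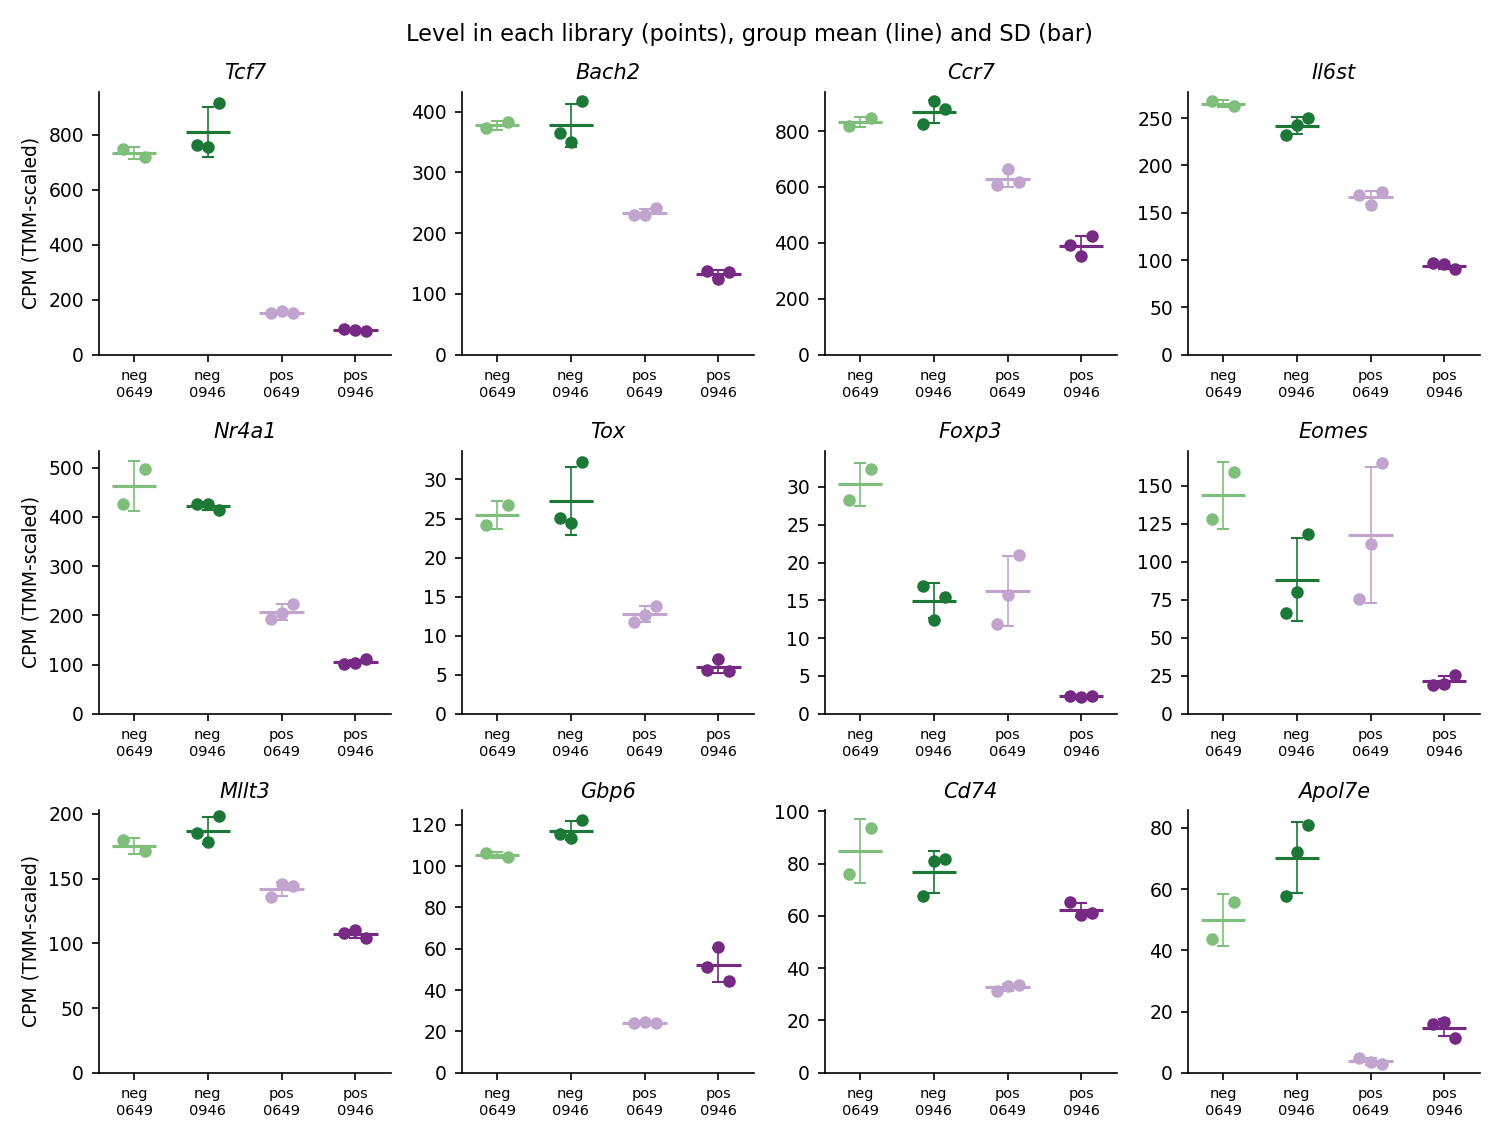
Level in each library (TMM-scaled CPM, linear axis from 0) of 12 genes in YFPneg (neg) and YFPpos (pos) cells with SGC0649 (left of each pair) and SGC0946 (right of each pair); points are libraries, lines are group means and bars are the SD. In the panels from Tcf7 to Mllt3 the YFPpos SGC0946 libraries are the lowest group; in Gbp6, Cd74 and Apol7e they lie above the YFPpos SGC0649 libraries.

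Of 27 tested genes that are switched on early after the T cell receptor is engaged, 4 were lower and none higher. The median of the list was -0.16. Nr4a1 (chr15:101254269-101274795) encodes Nur77, an orphan nuclear receptor often used as a readout of receptor signalling. Its YFPneg levels were 426 and 498 CPM with SGC0649 and 427, 426 and 413 CPM with SGC0946. Its YFPpos levels were 192, 205 and 223 CPM with SGC0649 and 101, 103 and 111 CPM with SGC0946. The YFPpos SGC0946 libraries lay below every other library and the interaction was -0.85 ± 0.10 (SE, adjusted p 0.00075), with a call in all 19 alternatives.

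Its relative Nr4a3 had 428 and 429 CPM against 365, 286 and 409 CPM in YFPneg cells, and 222, 269 and 338 CPM against 121, 104 and 125 CPM in YFPpos cells. Its interaction was -0.96 ± 0.20 (SE). Cd69, an early activation antigen, had 175 and 182 CPM against 164, 151 and 219 CPM in YFPneg cells. In YFPpos cells it had 73.1, 90.1 and 121 CPM against 44.9, 39.8 and 46.9 CPM, giving -1.10 ± 0.22 (SE). In Nr4a3 and Cd69 the compounds did not overlap in YFPpos cells, and the YFPpos SGC0649 libraries were spread, with replicate 3 highest. Their calls were lost without YFPneg SGC0649 replicate 1 (adjusted p 0.091 for each) or 2 (0.083 and 0.072). They were also lost without YFPpos SGC0946 replicate 1 (0.053 and 0.052) or 2 (0.061 and 0.056), and Nr4a3 also without YFPpos SGC0649 replicate 2 (0.051). With only the 11 cultured libraries in the fit they read 0.086 and 0.077.

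Egr1, an immediate-early transcription factor, moved in opposite directions. In YFPneg cells it rose from 217 and 229 CPM to 268, 247 and 279 CPM. In YFPpos cells it fell from 116, 113 and 134 CPM to 98.1, 96.1 and 93.8 CPM. The compounds did not overlap in either sort, and the interaction was -0.59 ± 0.10 (SE, adjusted p 0.0079). The call was lost without YFPneg SGC0649 replicate 1 (adjusted p 0.053).

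Among called genes outside the lists, Tespa1, which helps couple the receptor to calcium signals during thymic selection, met the rule by size. Its YFPneg levels were 21.6 and 24.8 CPM with SGC0649 and 19.6, 17.3 and 21.4 CPM with SGC0946. In YFPpos cells they were 16.2, 17.5 and 22.5 CPM and then 7.42, 5.4 and 7.34 CPM. All 3 YFPpos SGC0946 values were under 8 CPM and no other library was, with an interaction of -1.22 ± 0.20 (SE, adjusted p 0.0068). The next genes were chosen after their values were seen and stand for no tested group. They were Dgkd (diacylglycerol kinase delta) at -0.61, Fyb (the adaptor ADAP) at -0.61, Sh2b3 (the adaptor LNK) at -1.09 and Cd6, a surface regulator of the receptor, at -0.42. Ikzf3, which encodes the transcription factor Aiolos, had -0.63. Smad3, which relays TGF-beta signals, had -0.70, and Pdcd4, an inhibitor of translation, had -0.67. Tespa1 and these 7 passed in all 19 alternatives. Fyb shows the range: it read 360 and 365 CPM against 288, 298 and 327 CPM in YFPneg cells, and 173, 170 and 175 CPM against 97.4, 97.1 and 91.0 CPM in YFPpos cells.

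Cytokine receptors and receptors that restrain T cells gave a few calls. Of 13 follicular helper genes 2 were lower (Il6st and Btla) with a median of -0.16, and of 14 inhibitory receptor genes 3 were lower (Tox, Btla and Cd274) with a median of -0.27. No member of either was higher. Il6st (chr13:112464070-112510086) encodes gp130, the signalling chain shared by IL-6 family receptors. Its YFPneg levels were 268 and 263 CPM with SGC0649 and 232, 243 and 250 CPM with SGC0946. Its YFPpos levels were 169, 158 and 172 CPM and then 96.9, 95.6 and 90.1 CPM. Replicates were tight and the YFPpos SGC0946 libraries stood apart, with an interaction of -0.69 ± 0.08 (SE, adjusted p 0.00075).

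Tox (chr4:6686353-6991557) encodes a DNA-binding protein needed for CD4 T cell development and known from exhausted T cells. It read 24.2 and 26.8 CPM against 25.1, 24.4 and 32.3 CPM in YFPneg cells. In YFPpos cells it read 11.8, 12.7 and 13.8 CPM against 5.65, 6.95 and 5.43 CPM, and the interaction was -1.18 ± 0.19 (SE, adjusted p 0.0053). Il6st and Tox passed in all 19 alternatives. Btla, an inhibitory receptor, had an interaction of -0.46 ± 0.10 (SE), with 208 to 257 CPM over YFPneg libraries, 166 to 200 CPM in YFPpos SGC0649 and 146 to 150 CPM in YFPpos SGC0946. Cd274, which encodes PD-L1, had -0.72 ± 0.17 (SE), with 86.1 to 106 CPM in YFPpos SGC0649 and 57.4 to 60.2 CPM in YFPpos SGC0946 libraries. Both calls were weak. Among the 11 fits without 1 library, Cd274 passed only without a YFPneg SGC0946 library (replicate 1, 2 or 3) or YFPpos SGC0649 replicate 1, and its highest adjusted p was 0.15. Btla passed without those same 4 libraries and without YFPneg SGC0649 replicate 1, and reached 0.11 without YFPneg SGC0649 replicate 2.

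Foxp3 (chrX:7573644-7595245), the lineage factor of regulatory T cells, fell in both sorts. Its YFPneg levels were 28.3 and 32.4 CPM with SGC0649 and 16.9, 12.4 and 15.5 CPM with SGC0946. Its YFPpos levels were 11.9, 15.7 and 21.1 CPM with SGC0649 and 2.40, 2.22 and 2.30 CPM with SGC0946. The compounds overlapped in neither sort. The effect was -2.81 in YFPpos and -1.02 in YFPneg cells, and the interaction was -1.79 ± 0.34 (SE, adjusted p 0.015). The call was lost by limma-voom (adjusted p 0.11) and without YFPneg SGC0649 replicate 1 (0.075) or 2 (0.0502). Of 18 regulatory T cell genes tested, 2 were lower, with a median of -0.08. The other was Izumo1r, which encodes folate receptor 4, at -0.75 ± 0.17 (SE). It was lost in 8 of the 11 fits without 1 library and passed only without YFPneg SGC0946 replicate 1 or 3 or YFPpos SGC0649 replicate 1, with adjusted p up to 0.17.

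Eomes (chr9:118478212-118486132) encodes the T-box factor eomesodermin of cytotoxic and memory T cells and NK cells. It read 128 and 159 CPM against 66.2, 80.1 and 118 CPM in YFPneg cells. The YFPpos libraries read 75.6, 112 and 165 CPM with SGC0649 and 18.8, 19.6 and 25.4 CPM with SGC0946. The YFPpos SGC0649 libraries were widely spread, yet all lay above the 3 SGC0946 libraries, and the interaction was -1.75 ± 0.35 (SE, adjusted p 0.020). Without YFPneg SGC0649 replicate 1 or 2 the adjusted p was 0.11 and 0.055. Without YFPpos SGC0946 replicate 1 or 2 it was 0.061 and 0.0503, and in the 11 cultured libraries alone 0.076.

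The Th1 programme had 3 of 30 tested genes lower, none higher and a median of -0.07. Besides Eomes these were Stat4 and Xcl1. Stat4 (chr1:51987148-52107189), the transducer of IL-12, read 55.3 and 47.4 CPM against 66.0, 55.0 and 71.1 CPM in YFPneg cells. Its level in YFPpos cells was 67.4, 66.2 and 65.5 CPM with SGC0649 and 47.7, 45.2 and 51.0 CPM with SGC0946. It was thus above the YFPneg libraries of SGC0649 in YFPpos cells under the control compound, and below the YFPneg libraries of SGC0946 under the inhibitor. The interaction was -0.79 ± 0.14 (SE, adjusted p 0.0079), lost only without YFPneg SGC0649 replicate 2 (adjusted p 0.053).

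Xcl1 (chr1:164931644-164935527), the chemokine lymphotactin, had the lowest interaction among called genes at the level limit (a mean log2 CPM of 3 or more). It read 8.53 and 5.76 CPM against 9.62, 6.12 and 10.0 CPM in YFPneg cells. The YFPpos libraries read 72.2, 77.5 and 174 CPM with SGC0649 and 26.6, 13.0 and 31.1 CPM with SGC0946. YFPpos SGC0649 replicate 3 was far above its group, and all 3 SGC0946 libraries lay below that group. The interaction was -2.46 ± 0.54 (SE, adjusted p 0.032). It passed in 12 of 19 alternatives, with an adjusted p of 0.22 by limma-voom and 0.10 in the 11 cultured libraries alone. Without YFPneg SGC0649 replicate 1 or 2 it was 0.088 and 0.13, without YFPneg SGC0946 replicate 1 or 3 it was 0.065 and 0.066, and without YFPpos SGC0946 replicate 1 it was 0.061. Of 24 chemokines and receptors 2 were lower (Xcl1 and Ccr7) and 1 higher (Cxcr4), with a median of -0.09.

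The gene that defines the sort did not pass. Ifng (chr10:118441046-118445892) read 42.2 and 25.4 CPM with SGC0649 and 114, 55.4 and 31.2 CPM with SGC0946 in YFPneg cells. In YFPpos cells it read 671, 611 and 929 CPM with SGC0649 and 701, 533 and 701 CPM with SGC0946. The compounds overlapped in both sorts. The interaction was -1.19 with a 95% interval of -2.16 to -0.22 and an adjusted p of 0.26, so the difference missed the threshold after adjustment. The estimate moved to -0.55 without YFPneg SGC0946 replicate 1 and to -1.60 without YFPneg SGC0649 replicate 1, and it passed only without YFPneg SGC0946 replicate 3 (adjusted p 0.046). Ifng was used to sort the cells, so its level is not independent of the sort.

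Other fixed genes also gave intervals and no call. Tbx21 read 258 to 279 CPM in YFPneg and 258 to 332 CPM in YFPpos libraries, with an interaction of 0.15 (95% interval -0.03 to 0.34, adjusted p 0.47). Gata3, the Th2 lineage factor, had -0.59 (interval -1.01 to -0.18, adjusted p 0.18). Gzmb (granzyme B) had -0.08 (interval -0.42 to 0.27), Prf1 (perforin) 0.73 (interval 0.11 to 1.34, adjusted p 0.28) and Irf7 0.18 (interval -0.24 to 0.60). Prf1 rose in both sorts, from 16.6 to 23.2 CPM up to 50.6 to 56.3 CPM in YFPneg and from 22.6 to 47.0 CPM up to 123 to 160 CPM in YFPpos cells. Il10, which encodes an anti-inflammatory cytokine, also rose in both sorts and had an interaction of -0.28 (interval -1.36 to 0.79). Il2 stood at 1.12 to 5.93 CPM with -1.28 (interval -2.74 to 0.18). Prf1 passed in 2 of the 19 alternatives, without YFPpos SGC0649 replicate 1 (adjusted p 0.0057) and in 1 other. Tbx21, Gata3, Gzmb, Irf7, Il10 and Il2 passed in none.

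Of 17 Th2 genes tested, 1 was higher and none lower, and the list had a median of -0.38. The gene was Ecm1, a secreted matrix protein linked to the exit of Th2 cells from lymph nodes. It read 232 and 298 CPM against 268, 297 and 280 CPM in YFPneg cells, and 78.6, 66.4 and 55.2 CPM against 123, 142 and 116 CPM in YFPpos cells. The interaction was 0.84 ± 0.17 (SE, adjusted p 0.023). It was lost without YFPneg SGC0649 replicate 2 (adjusted p 0.12), YFPpos SGC0649 replicate 2 (0.069) and YFPpos SGC0946 replicate 1 (0.054) or 2 (0.065), and in the 11 cultured libraries alone (0.053). No Th17 gene (11 tested, median -0.03) and no interleukin or colony-stimulating factor (18 tested, median -0.14) passed.

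Of 25 tested ligands and receptors of the TNF family, 3 were lower and none higher, with a median of -0.15. Over all tested genes 0.891% were lower. Tnfsf8 encodes CD30 ligand. It read 354 and 357 CPM against 330, 302 and 432 CPM in YFPneg cells, and 248, 338 and 422 CPM against 130, 115 and 150 CPM in YFPpos cells. The compounds overlapped in YFPneg cells and not in YFPpos cells, with an interaction of -1.34 ± 0.23 (SE, adjusted p 0.0079), lost only without YFPneg SGC0649 replicate 1 (adjusted p 0.053). Tnfsf14, which encodes the costimulatory ligand LIGHT, was at 18.8 to 21.2 CPM in all 5 YFPneg libraries. The YFPpos libraries read 31.9, 31.1 and 44.6 CPM with SGC0649 and 19.3, 16.5 and 20.3 CPM with SGC0946, so that the sorts were apart with SGC0649 and overlapped with SGC0946. The interaction was -0.98 ± 0.20 (SE). It was lost without YFPneg SGC0649 replicate 1 or 2 (adjusted p 0.081 and 0.086), without YFPpos SGC0946 replicate 1 or 2 (0.059 and 0.065) and in the 11 cultured libraries alone (0.077).

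Fas, the death receptor, moved in opposite directions. It rose from 95.6 and 80.7 CPM to 111, 108 and 109 CPM in YFPneg cells and fell from 55.1, 55.9 and 56.8 CPM to 47.4, 45.1 and 45.3 CPM in YFPpos cells. The interaction was -0.59 ± 0.11 (SE, adjusted p 0.012), lost only without YFPneg SGC0649 replicate 2 (adjusted p 0.058). Fas was also the 1 called gene of 23 p53 target and apoptosis genes, whose median was -0.13.

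Of 13 NK receptor genes tested, 1 was lower, with a median of -0.51. Cd226 encodes DNAM-1, an activating receptor. It read 11.9 and 13.2 CPM against 10.8, 12.2 and 18.5 CPM in YFPneg cells, and 4.43, 5.88 and 7.53 CPM against 1.82, 2.54 and 1.96 CPM in YFPpos cells. The interaction was -1.62 ± 0.31 (SE, adjusted p 0.016). It was lost without YFPneg SGC0649 replicate 1 (adjusted p 0.073) or 2 (0.0502), without YFPpos SGC0946 replicate 1 (0.053) or 3 (0.052) and in the 11 cultured libraries alone (0.087). The summed level of 7 NK cell markers was 0.617 to 1.07 CPM in YFPneg SGC0649, 0.936 to 3.53 in YFPneg SGC0946, 3.63 to 7.59 in YFPpos SGC0649 and 11.4 to 12.8 in YFPpos SGC0946 libraries. It came mostly from Klre1 and Klri2, while Ncr1, a defining NK marker, was at 0 to 0.174 CPM in the cultured libraries. These markers were highest where Cd226, Eomes and Xcl1 were lower than with SGC0649, and their part in the result was not tested. CD8 markers summed to 6.50 to 9.51 CPM in YFPneg SGC0649 and 12.2 to 19.7 in YFPneg SGC0946 libraries. In YFPpos cells they summed to 4.76 to 6.41 CPM with SGC0649 and 5.82 to 6.63 with SGC0946. The part of these markers in the result was not tested. Among 18 cytotoxic granule genes 1 was lower and none higher, with a median of 0.03. This was Serpinb6b, a serpin, at -0.71 ± 0.17 (SE). It passed in 7 of 19 alternatives, and among the fits without 1 library only without YFPneg SGC0946 replicate 2 or YFPpos SGC0649 replicate 1, with adjusted p up to 0.13.

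Among partners of DOT1L and other chromatin genes, 5 were lower, against 0.891% of all tested genes. Of 17 DOT1L and elongation partner genes tested, 2 were lower, with a median of -0.09. Mllt3 (chr4:87769925-88033364) encodes AF9, which binds DOT1L. It read 180 and 171 CPM against 185, 178 and 198 CPM in YFPneg cells, and 136, 146 and 144 CPM against 108, 110 and 104 CPM in YFPpos cells. The YFPpos SGC0946 libraries were below all others and the interaction was -0.49 ± 0.09 (SE, adjusted p 0.0079), with a call in all 19 alternatives. Aff3, a member of the AF4 family, read 181 to 242 CPM over YFPneg libraries and fell in YFPpos cells from 119, 119 and 103 CPM to 90.5, 84.9 and 89.1 CPM. Its interaction was -0.61 ± 0.11 (SE, adjusted p 0.0079), lost only without YFPneg SGC0649 replicate 2 (adjusted p 0.0502). Dot1l itself was not called, at -0.12 (95% interval -0.33 to 0.09, adjusted p 0.65), with 220 to 280 CPM in YFPneg libraries, 213 to 230 CPM in YFPpos SGC0649 and 170 to 183 CPM in YFPpos SGC0946.

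Of 29 histone modifying enzyme genes, a list that also holds DNA methylation enzymes, 3 were lower and none higher, with a median of -0.07. Dnmt3a (chr12:3806007-3914443), a de novo DNA methyltransferase, fell in both sorts. It read 221 and 224 CPM against 182, 187 and 179 CPM in YFPneg cells, and 189, 192 and 217 CPM against 115, 111 and 117 CPM in YFPpos cells. The interaction was -0.52 ± 0.09 (SE, adjusted p 0.0069), called in all 19 alternatives. Kdm6b encodes JMJD3, a demethylase of lysine 27 of histone H3. It had -0.79 ± 0.16 (SE), with 116 to 155 CPM in YFPneg cells and 67.3, 74.9 and 94.7 CPM against 39.3, 41.4 and 41.8 CPM in YFPpos cells. It was lost without YFPneg SGC0649 replicate 1 (adjusted p 0.12) and without YFPpos SGC0946 replicate 1 (0.067) or 3 (0.051), and in the 11 cultured libraries alone (0.087). Kdm5b, a demethylase of lysine 4, differed in the other sort. It rose in YFPneg cells from 185 and 162 CPM to 236, 265 and 262 CPM, and read 125, 122 and 109 CPM against 120, 132 and 115 CPM in YFPpos cells. Its interaction of -0.50 ± 0.11 (SE) passed in 11 of 19 alternatives. It was lost without YFPneg SGC0649 replicate 2 (adjusted p 0.13), YFPpos SGC0649 replicates 1 and 2 (0.053 and 0.098) and YFPpos SGC0946 replicates 1 and 3 (0.094 and 0.096).

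A few further genes stood out by size among the lower ones. Lrig1 (chr6:94604529-94700158), a membrane protein that dampens growth factor receptors, read 78.1 and 81.7 CPM against 49.5, 56.8 and 62.8 CPM in YFPneg cells. Its level in YFPpos cells was 56.8, 66.2 and 82.2 CPM against 22.5, 17.6 and 21.4 CPM, an interaction of -1.23 ± 0.18 (SE, adjusted p 0.0032). Mgat5 (chr1:127205015-127488336) encodes an enzyme that branches N-glycans and raises the activation threshold of T cells. It read 30.6 to 35.7 CPM in all 5 YFPneg libraries, 33.0, 34.5 and 44.0 CPM in YFPpos SGC0649 and 16.7, 13.6 and 17.7 CPM in YFPpos SGC0946. The sorts were level under the control compound and apart under SGC0946, with an interaction of -1.18 ± 0.17 (SE, adjusted p 0.0032). Lrig1 and Mgat5 passed in all 19 alternatives. Akr1c13, an aldo-keto reductase with close relatives, had -1.25 ± 0.25 (SE), with 15.7 to 22.3 CPM in YFPpos SGC0649 and 5.65 to 6.99 CPM in YFPpos SGC0946 libraries. Pla2g4f, a phospholipase, fell in both sorts and had -1.16 ± 0.27 (SE). These 2 calls were weak. Among the 11 fits without 1 library Akr1c13 passed only without a YFPneg SGC0946 library (replicate 1, 2 or 3), YFPpos SGC0649 replicate 1 or YFPpos SGC0946 replicate 2. Pla2g4f passed only without YFPneg SGC0946 replicate 1 or 3 or YFPpos SGC0649 replicate 1, and their highest adjusted p values were 0.081 and 0.17.

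Some interferon-inducible GTPases were among the 32 higher genes. Guanylate-binding proteins (GBPs) are induced by interferon-gamma and attack membranes around intracellular microbes. Of 44 interferon response genes tested, 3 were higher, all of them GBPs, and 1 was lower, with a median of 0.11. Gbp6 (chr5:105270702-105293698) read 106 and 104 CPM against 116, 114 and 122 CPM in YFPneg cells. The YFPpos libraries read 23.9, 24.5 and 24.3 CPM with SGC0649 and 51.0, 61.1 and 44.6 CPM with SGC0946. It was lower in YFPpos than in YFPneg cells under both compounds, and the gap was narrower with SGC0946. The interaction was 0.95 ± 0.13 (SE, adjusted p 0.0022), called in all 19 alternatives.

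Gbp4 (chr5:105115767-105139586) read 822 and 902 CPM against 872, 964 and 1130 CPM in YFPneg cells, and 289, 270 and 252 CPM against 505, 543 and 474 CPM in YFPpos cells. Its interaction was 0.71 ± 0.12 (SE, adjusted p 0.0079), lost only without YFPneg SGC0649 replicate 2 (adjusted p 0.051). Gbp3 (chr3:142560026-142573209) read 186 and 184 CPM against 169, 173 and 206 CPM in YFPneg cells, and 87.6, 79.4 and 65.2 CPM against 125, 136 and 122 CPM in YFPpos cells. Its interaction was 0.74 ± 0.14 (SE, adjusted p 0.017), lost without YFPneg SGC0649 replicate 1 (adjusted p 0.069) or 2 (0.058). In all 3 GBPs the YFPpos libraries of the compounds did not overlap. Gbp8, named after its values were seen, had 0.57 and passed in 2 of the 11 fits without 1 library and 9 of the 19 alternatives. Its annotated span on chromosome 5 overlaps nearly all of Gbp4 on the same strand, so reads of the pair may not be assigned to the right gene. Gbp2 (0.10, adjusted p 0.78), Gbp5 (0.13, adjusted p 0.59) and Gbp7 (0.65, adjusted p 0.11) did not pass.

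Apol7e (chr15:77698857-77719285), of an interferon-induced apolipoprotein L family with close copies, had the highest interaction among called genes at the level limit (a mean log2 CPM of 3 or more). It read 43.7 and 55.8 CPM against 57.9, 72.1 and 80.8 CPM in YFPneg cells, and 4.82, 3.59 and 2.77 CPM against 16, 16.4 and 11.5 CPM in YFPpos cells. The YFPpos SGC0649 libraries were the lowest of all. The interaction was 1.47 ± 0.25 (SE, adjusted p 0.0079), lost only without YFPneg SGC0649 replicate 2 (adjusted p 0.0502).

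Promoter windows were not available for Gbp4, Gbp6 and Gbp8, so these were not searched. Among the 20 higher genes with a window, Gbp3 and Apol7e matched the core of the interferon-stimulated response element, so their promoters are shown. That core was searched on both strands as GAAA, any 2 bases, then GAAA, in the 250 bases before each RefSeq start (GRCm38.p6). Capitals mark the matches, read here on the opposite strand. Gbp3 is given from chr3:142559794-142560043 and Apol7e from chr15:77698639-77698888, both on the plus strand.
Gbp3: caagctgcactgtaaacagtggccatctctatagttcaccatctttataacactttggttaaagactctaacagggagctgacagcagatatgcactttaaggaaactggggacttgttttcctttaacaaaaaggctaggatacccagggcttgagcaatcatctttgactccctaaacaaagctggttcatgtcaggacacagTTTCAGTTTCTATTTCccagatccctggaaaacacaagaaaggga
Apol7e: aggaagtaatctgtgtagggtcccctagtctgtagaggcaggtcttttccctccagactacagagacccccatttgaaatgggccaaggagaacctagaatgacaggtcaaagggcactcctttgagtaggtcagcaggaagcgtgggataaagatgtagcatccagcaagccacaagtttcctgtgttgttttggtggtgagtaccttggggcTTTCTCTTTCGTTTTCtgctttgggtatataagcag
Each holds 2 overlapping matches, which begin 45 and 39 bases before the start in Gbp3 and 36 and 30 bases before it in Apol7e. A match was found in 2 of 20 higher genes and 4 of 89 lower genes with a window (Eomes, Fam169b, Ifi203 and Stat4), against 3.28% of 9413 tested genes and 2.98% of 32851 windows. A match is a description of the letters and not a site of binding.

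Irf8, an interferon-response transcription factor, was the member that went the other way. It read 300 to 359 CPM over YFPneg libraries, 406, 437 and 475 CPM in YFPpos SGC0649 and 334, 357 and 371 CPM in YFPpos SGC0946. Its interaction of -0.45 ± 0.10 (SE, adjusted p 0.028) passed in 11 of 19 alternatives. It was lost with DESeq2's size factors (adjusted p 0.051) and in the 11 cultured libraries alone (0.11). It was also lost without YFPneg SGC0649 replicates 1 and 2 (0.11 and 0.062), YFPpos SGC0649 replicates 2 and 3 (0.077 and 0.064) and YFPpos SGC0946 replicates 1 and 2 (0.094 and 0.061).

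Genes of antigen presentation gave 2 higher calls of 21 tested, both of the MHC class II pathway, and 1 of the 21 had a negative estimate (median 0.14). Cd74, the invariant chain of MHC class II, read 76.2 and 93.6 CPM against 67.6, 81.1 and 81.8 CPM in YFPneg cells. In YFPpos cells it read 31.2, 33.2 and 33.7 CPM with SGC0649 and 65.5, 60.4 and 61.1 CPM with SGC0946. The YFPneg groups overlapped, and the YFPpos groups lay apart by almost a factor of 2. The interaction was 1.07 ± 0.18 (SE, adjusted p 0.0068), called in all 19 alternatives. H2-Eb1, a class II beta chain, was scarce, with 0.349 to 2.29 CPM in YFPneg libraries, 1.00 to 1.17 CPM in YFPpos SGC0649 and 4.71, 5.76 and 6.11 CPM in YFPpos SGC0946. Its interaction was 3.26 ± 0.60 (SE, adjusted p 0.012), lost without YFPneg SGC0649 replicate 1 (adjusted p 0.065). It stood below the mean level at which the largest changes were listed. H2-Aa (2.48, adjusted p 0.17) and H2-Ab1 (0.90, adjusted p 0.22) were not called. Cells that present antigen also express these genes. The summed level of 6 B cell markers was at most 1.18 CPM in any cultured library, with Ms4a1 and Pax5 at 0 in all YFPpos SGC0946 libraries. Myeloid and dendritic cell markers summed to 0.411 to 2.29 CPM in YFPneg SGC0649, 2.09 to 6.2 in YFPneg SGC0946, 0.562 to 2 in YFPpos SGC0649 and 5.34 to 6.76 in YFPpos SGC0946 libraries. That sum was almost all Itgam (5 to 6.09 CPM in YFPpos SGC0946), with Csf1r, Clec9a, Siglech, S100a8 and S100a9 at 0 there. Lyz2, Itgax and Cd14 were low in YFPpos SGC0946, at 0.0795 to 0.123, 0.0921 to 0.311 and 0.0614 to 0.159 CPM. They lay above their YFPpos SGC0649 ranges of 0 to 0.0433, 0 to 0.0865 and 0 CPM. Fcgr1 and Adgre1 read 0 to 0.0397 and 0 to 0.119 CPM in YFPpos SGC0946. The sum moved with Cd74 and H2-Eb1, and the part of these markers in the result was not tested.

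The other higher genes with large interactions were mostly at low to moderate levels. Jag2, a Notch ligand, read 6.4 and 9.4 CPM against 11.8, 16.5 and 15.6 CPM in YFPneg cells, and 3.78, 4.11 and 4.33 CPM against 15.8, 21.7 and 16.9 CPM in YFPpos cells. It rose in both sorts, further in YFPpos cells, with an interaction of 1.27 ± 0.26 (SE, adjusted p 0.023). Kctd12, a subunit of GABA-B receptor complexes, rose in both sorts too, with 16.3 to 19.5 CPM up to 26.0 to 32.4 CPM in YFPneg and 10.9 to 14.9 CPM up to 40.5 to 45.1 CPM in YFPpos cells (interaction 1.02 ± 0.18). Smpdl3a, a phosphodiesterase, had 0.96 ± 0.21 (SE) on rises in both sorts. Cxcr4, the receptor for CXCL12, rose from 14 to 15 CPM up to 28.4 to 33.7 CPM in YFPneg cells and from 7.96 to 12.3 CPM up to 42.3 to 51.1 CPM in YFPpos cells, with 1.02 ± 0.23 (SE, adjusted p 0.043).

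Ifitm3, an interferon-induced antiviral membrane protein, was a YFPpos-high gene whose gap widened. It read 13.5 to 23.1 CPM over YFPneg libraries, 47.1, 41.2 and 51.4 CPM in YFPpos SGC0649 and 139, 104 and 131 CPM in YFPpos SGC0946. Its interaction was 1.17 ± 0.23 (SE, adjusted p 0.020). Socs2, which restrains cytokine signalling, differed on the YFPneg side. It fell from 98.2 and 112 CPM to 46.4, 47.7 and 32.3 CPM in YFPneg cells and read 89.1, 116 and 127 CPM against 89.2, 91.4 and 87.5 CPM in YFPpos cells, with an interaction of 1.00 ± 0.20 (SE, adjusted p 0.020). Cited2, a transcriptional coregulator, had 0.93 ± 0.21 (SE), and Pou6f1, a POU-domain factor, 0.90 ± 0.21 (SE). Serpina3g, a protease inhibitor of T cells with close paralogs, had 1.07 ± 0.25 (SE).

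Several calls, most of these higher ones among them, were lost when single libraries were left out. Kctd12 was lost only without YFPneg SGC0649 replicate 1 (adjusted p 0.065). Socs2 was lost without YFPneg SGC0649 replicate 1 or 2 (0.053 and 0.088) or YFPpos SGC0946 replicate 1 (0.053). Jag2 was lost without YFPneg SGC0649 replicate 2 (0.13), YFPpos SGC0649 replicate 2 (0.069) or YFPpos SGC0946 replicate 2 (0.069). Ifitm3 was lost without YFPneg SGC0649 replicate 1 or 2 (0.081 and 0.076), YFPpos SGC0649 replicate 2 (0.065) or YFPpos SGC0946 replicate 1 or 3 (0.064 and 0.053). Smpdl3a passed only without a YFPneg SGC0946 library (replicate 1, 2 or 3), YFPpos SGC0649 replicate 1 or YFPpos SGC0946 replicate 3. Cited2 passed only without YFPneg SGC0946 replicate 2, YFPpos SGC0649 replicate 1 or YFPpos SGC0946 replicate 3. Pou6f1 passed only without YFPneg SGC0946 replicate 2 or YFPpos SGC0649 replicate 1, Cxcr4 only without YFPneg SGC0946 replicate 3 or YFPpos SGC0649 replicate 1, and Serpina3g only without YFPneg SGC0946 replicate 1 or 3. In the 11 cultured libraries alone the adjusted p was 0.077 for Jag2, 0.053 for Ifitm3, 0.11 for Smpdl3a and Cited2, 0.13 for Pou6f1, 0.0502 for Cxcr4 and 0.094 for Serpina3g. With DESeq2's size factors the calls of Pla2g4f, Izumo1r, Cd274, Serpinb6b and Kdm5b were lost (adjusted p 0.063, 0.063, 0.065, 0.067 and 0.064), and with limma-voom those of Jag2, Pou6f1 and Cxcr4 (0.055, 0.069 and 0.11). The highest adjusted p was 0.14 for Smpdl3a, 0.13 for Cited2 and Pou6f1 and 0.16 for Cxcr4 and Serpina3g.

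Genes that passed in both sorts in opposite directions were few. Filip1l, related to filamin-A interacting protein, rose in YFPneg cells from 28.2 and 28.0 CPM to 36.2, 32.0 and 38.6 CPM. It fell in YFPpos cells from 21.8, 22.2 and 23.2 CPM to 15.6, 15.2 and 14 CPM. The compounds overlapped in neither sort, and the interaction was -0.93 ± 0.12 (SE, adjusted p 0.00086), called in all 19 alternatives. With Egr1 and Fas it made up the lower genes of this kind. Ptma, which encodes the small nuclear protein prothymosin alpha and has many processed copies in the genome, moved the other way. It fell in YFPneg cells from 454 and 444 CPM to 358, 372 and 403 CPM and rose in YFPpos cells from 486, 500 and 530 CPM to 554, 598 and 596 CPM, with 0.45 ± 0.09 (SE, adjusted p 0.023). Ptma passed in 13 of 19 alternatives, and was lost without YFPneg SGC0649 replicate 1 or 2 (adjusted p 0.092 and 0.066), YFPneg SGC0946 replicate 1 (0.051), YFPpos SGC0649 replicate 2 (0.078) or YFPpos SGC0946 replicate 2 or 3 (0.065 and 0.071). Rimkla, named because it completes the count, was under 1.2 CPM in every cultured library and at 0 in 2 of 3 YFPneg SGC0946 libraries, so its fitted values carry little weight.

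**Figure D4:**
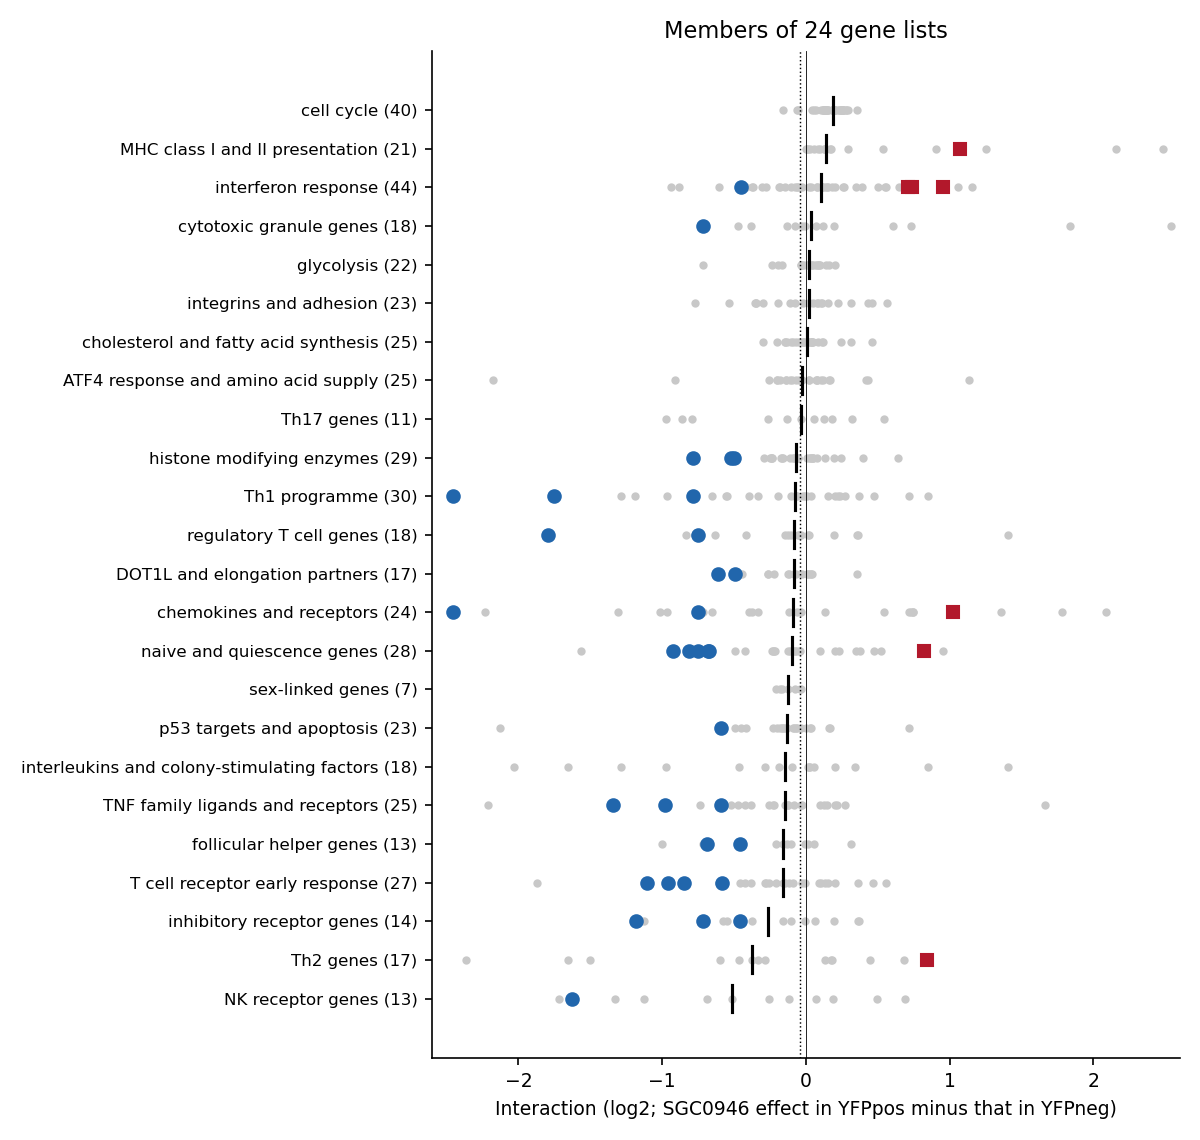
Interaction (log2) of every tested member of the 24 gene lists, with the number tested in brackets. Blue circles are lower and red squares higher calls, grey points are members that were not called, black bars are list medians, and the dotted line is the median of all tested genes (-0.04); 10 points outside the axis are not drawn. Called members are few in every list, and the cell cycle list has the highest median with no call.

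The remaining lists held no called gene. They included glycolysis (22 tested, median 0.02), cholesterol and fatty acid synthesis (25 tested, 0.01), the ATF4 response (25 tested, -0.02), integrins and adhesion (23 tested, 0.02) and sex-linked genes (7 tested, -0.12). The cell cycle list had the highest median of the 24, at 0.19 over 40 tested genes, and 3 of the 40 had a negative estimate. With SGC0946, 15 cell cycle genes fell and none rose in YFPneg cells, and 7 fell and 3 rose in YFPpos cells. Over all tested genes 3.64% fell and 4.99% rose in YFPneg cells, and 15.7% fell and 12.1% rose in YFPpos cells, so the YFPpos count of falls lies near the background. No member passed the interaction test, so a different effect in the sorts was not resolved for any single gene of this list. Mki67, the proliferation marker Ki-67, had 0.13 (adjusted p 0.54).

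The lower genes spanned long stretches of the genome. Their median span from start to end was 69.4 kb, against 21.2 kb for the higher genes and 23 kb for all tested genes with a length. A span over 100 kb was found in 39 of the 110 lower genes (35.5%), 3 of the 32 higher genes (9.38%) and 11.8% of all tested genes. Bach2 spans 347 kb, Foxp1 597 kb, Tox 305 kb, Mgat5 283 kb and Mllt3 263 kb. Other lower genes are short, such as Ccr7 at 10.9 kb, Eomes at 7.92 kb and Xcl1 at 3.88 kb. When all tested genes were split into 5 bins of span, the longest bin (65.3 to 2000 kb) held 57 lower and 3 higher calls and had a median interaction of -0.10. The shortest bin (up to 7.89 kb) held 6 and 9 and had a median of 0.00. In the longest bin the median SGC0946 effect was -0.04 in YFPpos and 0.05 in YFPneg cells. Median exonic length, taken as the union of all annotated exons of a gene, was 6.13 kb in lower and 3.55 kb in higher genes. In all tested genes it was 4.42 kb. The length of the transcripts present was not measured. Across the 12314 genes with a length, Spearman's rho with the interaction was -0.10 for span and -0.07 for exonic length, a description across genes that share the same 11 libraries. Longer transcripts also collect more reads, and the part of read number in these counts was not tested.

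**Figure D5:**
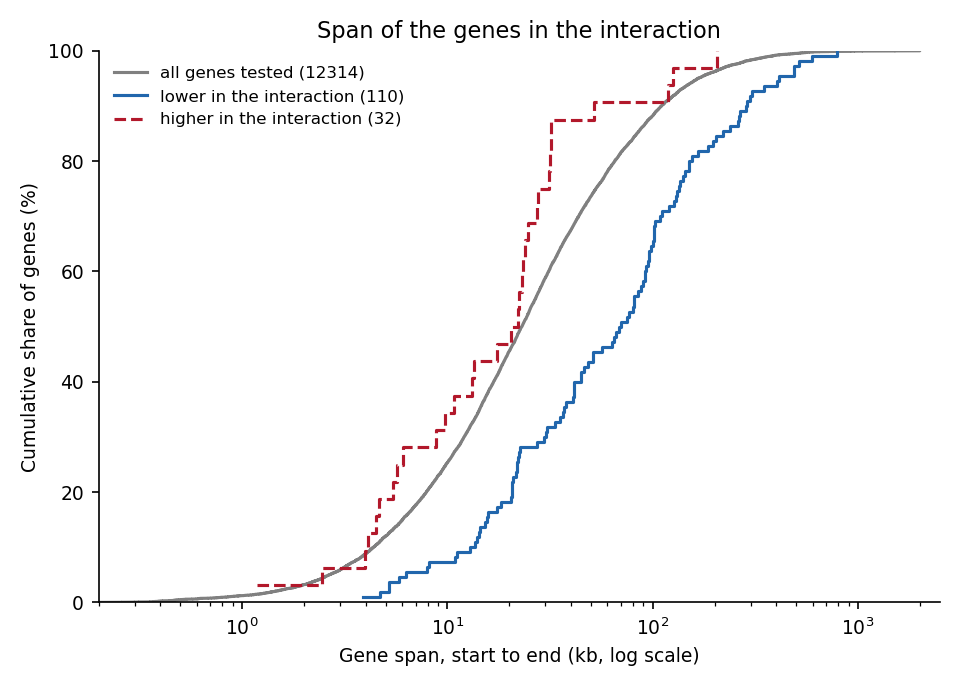
Cumulative share of genes (%) by span from start to end (kb, log scale) for the 110 lower genes (blue), the 32 higher genes (red, dashed) and all tested genes with a length (grey). The blue curve lies to the right of the grey one, with medians of 69.4 and 23 kb, and the red curve lies near or to the left of the grey one.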

How the data were processed

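The authors deposited a table of whole-number read counts per gene, not normalized, for 14 libraries. Per the submitters' processing notes, featureCounts, edgeR and limma were used with build GRCm38; no versions are listed, and an aligner and an annotation are not given in the sources consulted. Every row of the table named a gene, and 0 columns were left unused. Total counts were 14.5 to 31.6 M (1 M being 1000000) per cultured library, and counting error is covered by the model.

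edgeR 4.0.16 (R 4.3.3) was used. After filterByExpr, given the groups, libraries were scaled by TMM, and all 14 were fitted in 1 quasi-likelihood model with a coefficient per group. The 3 contrasts (the SGC0946 effect in each sort and the interaction) were tested with the quasi-likelihood F test and adjusted by Benjamini-Hochberg over all 12343 genes at 0.05. Standard errors were taken from the fold change and its F statistic, and 95% intervals from the t distribution. The code was tested on simulated data.

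The naming rule took 12 fixed genes, the 12 largest called interactions in each direction at a mean log2 CPM of at least 3, up to 6 genes with opposite effects, and up to 4 members of each of 24 lists by smallest p. Called list members beyond these are named as well. The genes and lists were chosen with earlier results of these data known. No gene list was given a test of its own. Alternatives were DESeq2 1.42.0 (its size factors, and its Wald test), limma-voom (limma 3.58.1), other filters, the 11 cultured libraries alone, replicate blocks, and leaving out each cultured library. Spans came from GENCODE M21 and promoters from RefSeq GRCm38.p6. Some items are not reported here.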

Additional observations from a re-analysis of the deposited data

Results flagged for a closer look

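The SGC0946 effect differed between YFPpos and YFPneg cells by the test of the difference itself at 51 of the 114 genes named by the rule. The rule itself takes called genes and the smallest p values, so that share follows from the rule. Over all tested genes 1.15% passed. The adjusted p values of the 51 genes in the interaction, by edgeR's quasi-likelihood test, follow, and the sizes of the interactions stand in the report. Among genes of naive and resting cells, the adjusted p was 0.00075 for Tcf7, 0.00082 for Bach2, 0.00086 for Ccr7 and 0.0042 for Foxp1. Among genes of T cell receptor signalling and the early response, the adjusted p was 0.00075 for Nr4a1, 0.0079 for Egr1, 0.021 for Nr4a3, 0.02 for Cd69 and 0.0068 for Tespa1. Among lineage and cytokine genes, the adjusted p was 0.015 for Foxp3, 0.02 for Eomes, 0.0079 for Stat4, 0.032 for Xcl1, 0.041 for Izumo1r, 0.00075 for Il6st and 0.028 for Irf8. Among other receptors, ligands and their regulators, the adjusted p was 0.0053 for Tox, 0.029 for Btla, 0.046 for Cd274, 0.016 for Cd226, 0.0079 for Tnfsf8, 0.023 for Tnfsf14, 0.012 for Fas and 0.046 for Serpinb6b. Among chromatin genes, the adjusted p was 0.0079 for Mllt3, 0.0079 for Aff3, 0.0069 for Dnmt3a, 0.021 for Kdm6b and 0.032 for Kdm5b. Among the remaining lower genes, the adjusted p was 0.00086 for Filip1l, 0.0032 for Lrig1, 0.0032 for Mgat5, 0.02 for Akr1c13 and 0.047 for Pla2g4f. Among higher interferon-inducible and antigen presentation genes, the adjusted p was 0.0022 for Gbp6, 0.0079 for Gbp4, 0.017 for Gbp3, 0.0079 for Apol7e, 0.02 for Ifitm3, 0.0068 for Cd74 and 0.012 for H2-Eb1. Among the remaining higher genes, the adjusted p was 0.023 for Ecm1, 0.023 for Jag2, 0.0087 for Kctd12, 0.029 for Smpdl3a, 0.043 for Cxcr4, 0.02 for Socs2, 0.041 for Cited2, 0.049 for Pou6f1, 0.048 for Serpina3g and 0.023 for Ptma. No group held the 4 samples that the search for single outlying samples needs.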

How the results depend on the processing

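Each result was recomputed under 19 alternatives. The 142 called genes kept their direction wherever they were tested, and 33 passed in every one of the 11 fits without 1 library. No estimate of a named gene changed sign where it was called in either fit. A change of sign with no call in either fit occurred in 87 estimates of named genes, over the 3 contrasts. The count of genes in the interaction was 301 by DESeq2's Wald test (59.8% lower) and 56 with the 11 cultured libraries alone, all 56 among the 142. Leaving out 1 library gave 61 to 241. With DESeq2's size factors 67.2% of the interaction's calls were lower against 77.5%. The lower share of the SGC0946 effect in YFPpos cells was 44.9% with those size factors and 44.5% with the 11 cultured libraries alone, against 56.5%. That effect gave 1886 to 4565 genes without 1 library, with 1886 without YFPpos SGC0649 replicate 3 and 2004 without YFPpos SGC0946 replicate 2. The SGC0946 effect in YFPneg cells gave 1615 by DESeq2, 616 with 11 libraries, 1668 with a replicate block by last digit, and 335 to 1520 without 1 library, with 335 without YFPneg SGC0649 replicate 2. That fit leaves 1 library in its group, whose spread is assumed to be that of the other groups. The cause of these shifts was not tested. Deviations from the group mean correlated between the sorts of title numbers 61, 62, 91, 92 and 93 at 0.27, 0.083, 0.14, 0.15 and 0.0053. With 2 or 3 libraries per group these values cannot settle whether a number marks a pair. The fit without a block is the one reported. A replicate block by title number gave 196 genes in the interaction, with 127 of the 142 among them. A block by last digit gave 180, with 139 of the 142 among them. Of the named calls, Cxcr4 was lost under both blocks (adjusted p 0.067 and 0.051). Prf1 gained a call with the block by title number (adjusted p 0.040). Of 2151 estimates of named genes, 200 lost and 44 gained a call. Low counts limit H2-Eb1, Rimkla, Cyp2d22 and Sorbs3, which lay below the level limit.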
